A study of Mus musculus with 18 samples.

Results

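Comp, Itga2 and Myl7 are a matrix gene, an integrin gene and a myosin light chain gene that were measured in glomeruli after the deletion of PTIP from podocytes. They were taken by gene symbol, and each symbol had 1 probe set, so that 3 of the 58 probe sets of the expression table were used (49 of the 58 carry a symbol, of 41 different genes). RNA came from kidney fractions enriched for glomeruli by passage through nylon meshes, and each of 18 mice was measured on its own Affymetrix array. The 10 PTIP- mice were Paxip1 fl/fl or Paxip1 fl/- and carried a Cre transgene that is active in late developing and mature podocytes (Pod-Cre in the labels). The 8 PTIP+ mice were littermates with the same floxed and null Paxip1 alleles and no Cre, which the labels call wild type. PTIP is made from the floxed allele in cells without Cre. No mouse on the arrays carried Cre with intact PTIP, so the effects of Cre and of the deletion cannot be told apart. The mice were killed at 4 weeks by the protocol, while the ages in the labels run from 1 to 18 months with none repeated. The protocol's age was used.

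PTIP, the product of Paxip1, belongs to a complex that methylates histone H3 at lysine 4, a mark of active promoters. Podocytes hold their foot processes on the glomerular basement membrane through integrins, which bind matrix proteins outside the cell and are coupled to actin and myosin inside it. COMP is a secreted glycoprotein of the thrombospondin family, best known from cartilage and tendon, the integrin alpha 2 chain pairs with a beta chain to form a collagen receptor, and MYL7 is the regulatory myosin light chain of the cardiac atrium. The pathway annotation of the table, which covers only 11 genes, places 3 of them in focal adhesion, and they are these 3. Whether they act together in these cells was not tested.

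Promoter sequence is shown as background to the genes, and what acts on it was not tested. Of the 3 genes, Itga2 and Myl7 (2 of 3) matched the promoter sequences of RefSeq (GRCm38.p6), which run from 250 bases before to 50 bases after the start of the gene. The Itga2 promoter lies at chr13:114932051-114932350 and the Myl7 promoter at chr11:5898733-5899032, both on the minus strand. They are written 5′ to 3′ along the gene, with CpG dinucleotides in capitals.
Itga2: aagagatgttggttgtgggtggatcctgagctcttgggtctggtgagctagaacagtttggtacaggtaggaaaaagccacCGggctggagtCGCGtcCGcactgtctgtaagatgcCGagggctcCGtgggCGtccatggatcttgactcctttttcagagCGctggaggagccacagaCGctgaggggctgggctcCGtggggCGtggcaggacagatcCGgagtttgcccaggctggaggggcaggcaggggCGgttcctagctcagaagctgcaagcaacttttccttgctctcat
Myl7: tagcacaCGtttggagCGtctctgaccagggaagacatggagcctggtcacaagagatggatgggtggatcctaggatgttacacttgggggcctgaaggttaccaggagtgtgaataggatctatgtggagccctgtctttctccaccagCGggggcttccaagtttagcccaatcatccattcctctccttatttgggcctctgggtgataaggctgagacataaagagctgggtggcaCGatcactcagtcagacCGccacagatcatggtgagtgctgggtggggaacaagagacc
The Itga2 window holds 13 CpG dinucleotides at 59.3% G and C, and the Myl7 window 5 at 53.7%, where the median over 32851 promoters of the same length is 7 at 52.7%. Itga2 thus lies above and Myl7 below the median in CpG number. The Myl7 window holds 1 CArG box, the letters bound by serum response factor, as CCTTATTTGG from base -61 relative to the start, which 1.63% of all promoters hold on either strand. It also holds GATAAG at -41 (7.44% of promoters), which does not overlap the CArG box. Neither is in the Itga2 window, which holds GGGCGG once (35.7% of promoters). TATAAA (13.6% of promoters) and CACGTG (7.15%) are in neither window. A match of letters is a description, and no binding was measured here.

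The values are log2 values after robust multi-array averaging (RMA), so that 1 unit is a 2-fold difference in signal. The table held the probe sets that the authors had selected for a difference between these same genotypes. Fold changes and p-values of the genotype difference therefore describe its size against its spread and are not independent evidence that it exists. Of 41 marker genes of podocytes, mesangial, endothelial and other cells, 0 had a probe set among the 58, and Paxip1 was not analysed here, so neither the tissue label nor the deletion was checked on these values. The fraction held mesangial and endothelial cells besides podocytes. Fewer cells of a type and less RNA per cell cannot be told apart in such bulk RNA.

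Animal numbers in the scan names fall into 3 ranges, called series 1, 2 and 3 here. The labels do not name them as batches. Series 1 held 3 PTIP+ and 3 PTIP- mice, series 2 held 2 and 4, and series 3 held 3 and 3. Of the variance of a probe set within the genotypes, a median of 58.2% over the 58 probe sets lay between the series, so that values within each series stand beside the pooled ones. Such shares are of sums of squares, not corrected for the number of series, and part of them arises even where series do not differ. The median array weight, which is low where arrays depart more from their group, was 0.41 in series 2 against 1.81 in series 1 and 1.39 in series 3. The weights of single arrays overlapped, from 0.26 to 1.63 in series 2, 0.51 to 2.37 in series 1 and 1.05 to 2.02 in series 3. PTIP- replicate 4 had the highest weight in series 2 and the lowest Comp value among PTIP- mice, and without it the log2 fold change of Comp was 1.60. The number of arrays limits the precision.

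Comp and Myl7 were increased in PTIP- glomeruli and Itga2 was decreased. All 3 passed an adjusted p of 0.05 and a 2-fold difference in limma with Benjamini-Hochberg adjustment, 2 upward and 1 downward, where 89.7% of the 58 probe sets passed, 32.8% upward and 56.9% downward. With each array centred on its median, 32 probe sets passed and most of them, 62.5%, were upward. That median is of the selected probe sets alone and was lower in PTIP- mice (mean 6.24 against 6.70). Centring thus moves the differences upward by construction, and the changed split is not read as a result. Taken over all mice, the genotypes overlapped for each of the 3 genes, while 25.9% of the probe sets had no overlap. Within each of the 3 series the genotypes did not overlap for any of the 3 genes, and the same held for 65.5% of the probe sets. These shares in the selected table are high, and nothing particular to the 3 genes is read from their counts.

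**Figure D1:**
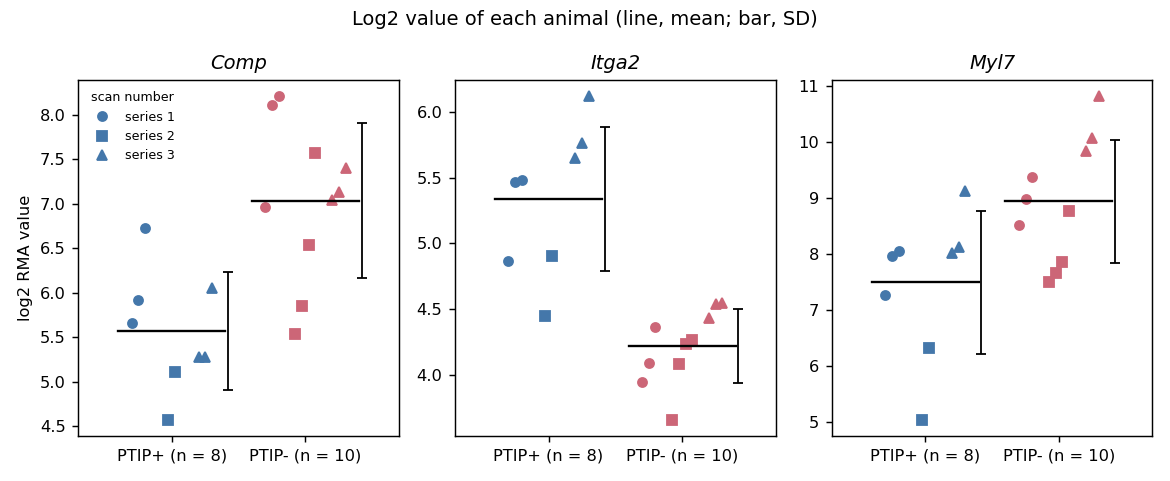
Log2 RMA value of Comp, Itga2 and Myl7 in each of 8 PTIP+ (blue) and 10 PTIP- (red) mice, with the mean as a line, the SD as a bar and the scan number series as the shape of the point. The genotypes overlap over all mice and do not overlap within any series.

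Comp, the matrix gene, was measured by 1419527_at. Its log2 value in the 8 PTIP+ mice lay between 4.57 and 6.72 with a median of 5.47, and in the 10 PTIP- mice between 5.53 and 8.21 with a median of 7.08. The lowest PTIP- mice, at 5.53, 5.85 and 6.53, all belonged to series 2 and lay inside the PTIP+ range, and the highest PTIP+ mouse, at 6.72, belonged to series 1. The other 7 PTIP- mice were above every PTIP+ mouse, and 9 of 10 exceeded the mean of PTIP+ mice. Means and SDs were 5.57 ± 0.66 (n = 8) for PTIP+ and 7.03 ± 0.87 (n = 10) for PTIP-. The log2 fold change was 1.35 (95% confidence interval 0.73 to 1.97, adjusted p = 0.00017, limma with Benjamini-Hochberg adjustment), or 2.54-fold, and 9 probe sets had a larger increase. The unweighted difference of means was 1.46 (exact two-sided permutation test, p = 0.0019, adjusted over the 58 probe sets p = 0.0028).

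The increase of Comp was of nearly the same size in every series. Mean log2 values went from 6.10 to 7.76 in series 1, from 4.84 to 6.37 in series 2 and from 5.53 to 7.19 in series 3, which are differences of 1.66, 1.53 and 1.65. Blocking on series in limma gave a log2 fold change of 1.60 (Benjamini-Hochberg adjusted p = 3.0e-07). A difference of the genotype effect between series was not detected for Comp (adjusted p = 0.92, interaction test in limma, all 58 probe sets), while 9 probe sets passed that test. Series 2 was the lowest in both genotypes, and 53.6% of the variance within genotypes lay between series.

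Itga2, the receptor gene, was measured by 1450501_at. Its log2 value lay between 4.45 and 6.12 with a median of 5.47 in PTIP+ mice, and between 3.66 and 4.55 with a median of 4.25 in PTIP- mice. The overlap was narrow: PTIP+ replicate 5, of series 2, was at 4.45, and 2 PTIP- mice of series 3 were just above it, at 4.54 and 4.55. Every one of the 10 PTIP- values was below the mean of PTIP+ mice. Means and SDs were 5.34 ± 0.55 (n = 8) for PTIP+ and 4.22 ± 0.28 (n = 10) for PTIP-. The log2 fold change was -1.23 (95% confidence interval -1.63 to -0.84, adjusted p = 2.5e-06, limma with Benjamini-Hochberg adjustment), a 2.35-fold decrease, and 25 probe sets had a larger decrease. The unweighted difference was -1.12 (exact two-sided permutation test, p = 6.9e-05, adjusted over the 58 probe sets p = 0.00023).

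The decrease of Itga2 was smallest in series 2, where its PTIP+ mean was lowest. Mean log2 values went from 5.27 to 4.13 in series 1, from 4.68 to 4.06 in series 2 and from 5.84 to 4.51 in series 3, differences of -1.14, -0.62 and -1.34. The interaction test did not separate these sizes (adjusted p = 0.38, interaction test in limma), and blocking on series gave -1.13 (adjusted p = 1.4e-07, limma). The PTIP- means of the 3 series lay between 4.06 and 4.51 and the PTIP+ means between 4.68 and 5.84. Itga2 had a mean of 4.72 over all arrays. Detection calls were not used here, and how near this probe set lies to the array background was not tested. When every array was centred on its own median, the log2 fold change of Itga2 was -0.73, under 2-fold, because the array medians of these selected probe sets were themselves lower in PTIP- mice (mean 6.24 against 6.70).

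Myl7, the cytoskeletal gene, was measured by 1449071_at and was the most variable of the 3 genes. Its log2 value lay between 5.04 and 9.13 with a median of 7.99 in PTIP+ mice, and between 7.50 and 10.8 with a median of 8.88 in PTIP- mice. The overlap was wide, as 6 of the PTIP- mice lay inside the PTIP+ range and 5 of the PTIP+ mice inside the PTIP- range, yet the 10 PTIP- values all exceeded the mean of PTIP+ mice. Means and SDs were 7.49 ± 1.27 (n = 8) for PTIP+ and 8.94 ± 1.10 (n = 10) for PTIP-. The log2 fold change was 1.29 (95% confidence interval 0.53 to 2.05, adjusted p = 0.0019, limma with Benjamini-Hochberg adjustment), or 2.44-fold, and 13 probe sets had a larger increase. The unweighted difference was 1.45 (exact two-sided permutation test, p = 0.017, adjusted over the 58 probe sets p = 0.019), while the difference of medians was 0.89, under 2-fold.

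Most of the spread of Myl7 lay between series. Mean log2 values went from 7.76 to 8.96 in series 1, from 5.68 to 7.95 in series 2 and from 8.42 to 10.24 in series 3, differences of 1.20, 2.27 and 1.82. Series 2 was thus the lowest and series 3 the highest in both genotypes, and 83.0% of the variance within genotypes lay between series. Blocking on series gave a log2 fold change of 1.62 (adjusted p = 3.3e-07, limma), and the interaction test gave an adjusted p of 0.34 in limma. An exact test inside 1 series could not pass 0.05 for any gene, since the smallest two-sided p is 0.1 with 3 mice against 3 and 0.0667 with 2 against 4.

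**Figure D2:**
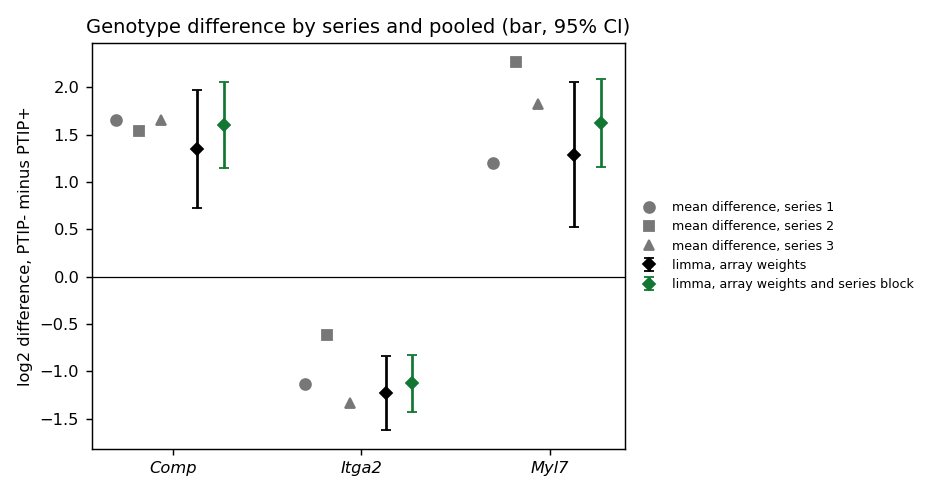
Log2 difference of PTIP- minus PTIP+ for Comp, Itga2 and Myl7, as the difference of means within each scan number series (grey) and as the limma estimate with its 95% confidence interval, without (black) and with (green) the series as a block. Comp and Myl7 lie above 0 and Itga2 below 0 in every series, and the decrease of Itga2 is smallest in series 2.

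Within a genotype, Itga2 and Myl7 rose and fell together over the mice, although genotype moved them in opposite directions. In PTIP+ mice Pearson's r was 0.946 (n = 8, exact permutation p = 0.00055, adjusted p = 0.0033 over 6 relations) and Spearman's rho 0.905 (exact permutation p = 0.0046, adjusted p = 0.027). In PTIP- mice r was 0.761 (n = 10, permutation p = 0.0099, adjusted p = 0.030) and rho 0.782 (permutation p = 0.010, adjusted p = 0.031). The PTIP+ mice of series 2 were low for both genes, with Itga2 at 4.45 and 4.91 and Myl7 at 5.04 and 6.32. PTIP+ replicate 6, of series 3, was the highest for both, at 6.12 and 9.13.

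Since 71.6% of the variance of Itga2 within genotypes also lay between series, the relation was also taken as deviations from the mean of each genotype in each series. In PTIP+ mice r was then 0.931 (n = 8, exact permutation p = 0.028, adjusted p = 0.17). The smallest exact permutation p that the 72 possible shuffles allow is 0.0139, which adjusts to 0.0833 if no other relation has a low p. In PTIP- mice r was 0.456 (n = 10, exact permutation p = 0.26, adjusted p = 0.79), so within PTIP- mice the relation was not shown to hold inside the series. For both genotypes together, a calculation added after the data were seen, r was 0.714 (n = 18, exact permutation within genotype and series, p = 0.010, adjusted p = 0.031 over 3 pairs), with 0.824, 0.673 and 0.775 in series 1, 2 and 3. Without the 2 mice farthest from the median of Itga2, r was 0.865 in PTIP+ (adjusted p = 0.092, exact permutation over 6 mice) and 0.875 in PTIP- mice (adjusted p = 0.038, exact permutation over 8 mice), so that in PTIP+ mice the adjusted p no longer passed. Without the 2 farthest from the median of Myl7, chosen after the data were seen, r was 0.944 in PTIP+ and 0.742 in PTIP- mice (adjusted exact permutation p = 0.10 for both). With each array centred on its median, r was 0.813 and 0.706 (adjusted permutation p = 0.073 for both), so the call was lost in both genotypes. The part of array quality in the relation was not tested.

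Comp followed neither gene closely. Its r with Itga2 was 0.316 in PTIP+ and 0.257 in PTIP- mice, and its r with Myl7 was 0.444 and 0.338, each with an adjusted permutation p of 0.47. Spearman's rho was 0.262 and 0.139 with Itga2 and 0.286 and 0.333 with Myl7, with adjusted permutation p-values between 0.64 and 0.71. As deviations from the means of genotype and series over 18 mice, r was 0.102 with Itga2 and -0.17 with Myl7 (adjusted exact permutation p = 0.76 for both). The sign differed between series, with r of 0.478, -0.0040 and -0.59 for Itga2 and of 0.778, -0.67 and -0.16 for Myl7 in series 1, 2 and 3, and each of these rests on 6 mice and was not tested. A link between Comp and the other genes was therefore not detected with these numbers of mice.

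**Figure D3:**
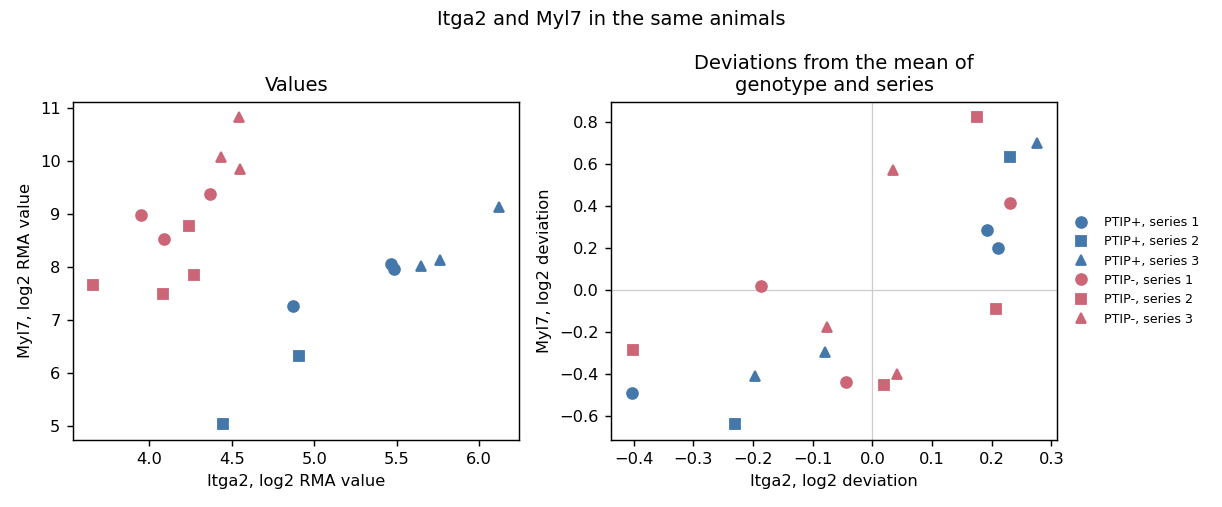
Log2 values of Itga2 and Myl7 in the same mice (left) and their log2 deviations from the mean of each genotype in each scan number series (right), with PTIP+ mice in blue, PTIP- mice in red and the series as the shape of the point. Both genotypes slope upward on the left, with PTIP- mice at lower Itga2 and higher Myl7, and over all 18 mice the deviations on the right have an r of 0.714.

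Over the 1639 pairs of probe sets of different genes, the median size of r was 0.469 in PTIP+ and 0.383 in PTIP- mice. A correlation at least as far from 0 as that of Itga2 and Myl7 was found in 11 pairs (0.671%) in PTIP+ and in 180 pairs (11.0%) in PTIP- mice. As deviations from the means of genotype and series over all mice, 88 pairs (5.37%) were as far from 0. These pairs share arrays and series, and the shares are a description.

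The genes most like each of the 3 were named by Pearson's r over the 18 mice, as deviations from the genotype means and without a test. A gene with several probe sets was placed by the one with the highest r, or the lowest for the lowest rank, and its other probe sets can differ. Tspan32, a tetraspanin gene that was increased in PTIP- mice, was the most like Myl7 outside the 3 genes, with an r of 0.881, and it had 0.613 as deviations from the means of genotype and series. Lrrc4 and St6galnac3, both decreased in PTIP- mice, followed Myl7 with 0.838 and 0.818, but with 0.0571 and 0.29 once the series was taken out, so that little of their likeness was left within series. The lowest r with Myl7 was that of the interleukin 6 receptor gene Il6ra, at -0.71, and at -0.41 without the series. The genes most like Itga2 were 3110006E14Rik (0.786), Smyd1 (0.747) and the cytokine gene Lif (0.739), all decreased in PTIP- mice, with 0.53, 0.386 and 0.451 without the series, and the lowest was D830026I12Rik (-0.64, and -0.13 without the series). For comparison, the r of Itga2 with Myl7 measured in the same ways was 0.852 and 0.714.

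The genes most like Comp were Aff3 (0.665), Mamdc2 (0.637) and the vasodilator peptide gene Adm (0.623). Without the series they had 0.283, 0.499 and 0.284, and only Mamdc2 was among the 3 highest both with and without it. Stx11 was the highest without the series (0.611, and 0.037 with it) and E430002G05Rik the third (0.455, and 0.531 with it). Lingo2 was the lowest with the series, at -0.54, and had -0.04 without it. Without the series A330068G13Rik was the lowest, at -0.38, and it had 0.175 with the series. Outside the 3 genes, LOC627626 was the most like both Itga2 (0.624) and Myl7 (0.631) without the series, and it had -0.0013 and -0.12 with it. The others nearest to Itga2 without the series were Aff3 (0.566) and 2310050P20Rik (0.53), and the lowest was 1 of the 2 probe sets of the protamine gene Prm1 (-0.50, and -0.58 with the series). The neurotrophin receptor gene Ntrk3, taken from 1 of its several probe sets, had an r of 0.625 with Myl7, 0.557 without the series, against 0.399 and 0.131 with Itga2 and 0.254 and -0.18 with Comp. The other probe set of Prm1 and the Wnt inhibitor gene Wif1, which differed far more between the genotypes, had r between -0.32 and 0.153 with the 3 genes as deviations from the genotype means.

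Other matrix, integrin and muscle genes were few in the table. Of 45 matrix glycoprotein and proteoglycan genes it held Comp, Mamdc2 and Nell2, of which 2 were increased and 1 decreased. Of 21 integrin genes it held Itga2 alone. Of 29 sarcomere and muscle genes it held Myl7, Mybph and Smyd1, of which 2 were increased and 1 decreased. Among all probe sets, 32.8% were increased and 56.9% decreased, and nothing is read from these counts. Centring on the median of these selected probe sets turns that split round by construction. Genes outside the table were not analysed here.

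Mamdc2, a secreted proteoglycan, had a log2 value between 7.52 and 8.95 (median 8.03) in PTIP+ and between 7.96 and 9.92 (median 9.26) in PTIP- mice. The genotypes overlapped, and the log2 fold change was 1.12 (SE 0.21, adjusted p = 2.3e-05, limma with Benjamini-Hochberg adjustment). Nell2, a secreted glycoprotein with domains like those of thrombospondins, went the other way, from between 9.11 and 10.4 (median 9.41) in PTIP+ to between 6.05 and 8.85 (median 8.11) in PTIP- mice, with no overlap (log2 fold change -1.41, SE 0.24, adjusted p = 6.6e-06, limma).

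Mybph, which encodes myosin binding protein H, had a log2 value between 4.55 and 5.90 (median 5.23) in PTIP+ and between 5.74 and 7.16 (median 6.34) in PTIP- mice, an increase with a log2 fold change of 1.44 (SE 0.22, adjusted p = 2.4e-06, limma). Smyd1, a histone methyltransferase gene of heart and skeletal muscle, had a log2 value between 3.66 and 6.27 (median 5.15) in PTIP+ and between 2.38 and 4.84 (median 4.02) in PTIP- mice, a decrease with a log2 fold change of -1.27 (SE 0.27, adjusted p = 0.00011, limma). Mybph and Smyd1 each overlapped between the genotypes. The 4 marker genes of the atrium had no probe set among the 58, and the cell of origin of the Myl7 signal was not tested.

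**Figure D4:**
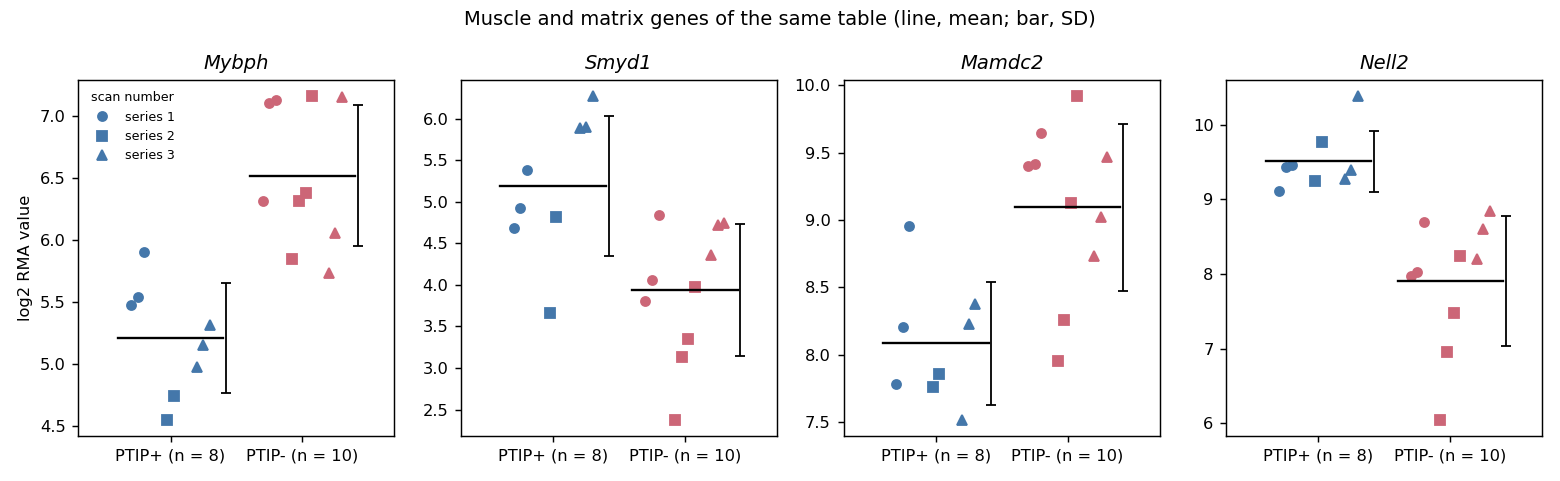
Log2 RMA value of the muscle genes Mybph and Smyd1 and the matrix genes Mamdc2 and Nell2 in each of 8 PTIP+ (blue) and 10 PTIP- (red) mice, with the mean as a line, the SD as a bar and the scan number series as the shape of the point. Mybph and Mamdc2 are higher and Smyd1 and Nell2 lower in PTIP- mice, and Nell2 alone has no overlap.

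The table's pathway annotation gave 11 genes a total of 20 pathways, and 9 of these pathways held Comp, Itga2 or Myl7. Besides focal adhesion, Itga2 and Myl7 shared regulation of the actin cytoskeleton, Itga2 with a decrease and Myl7 with an increase. Comp shared TGF-beta signaling with Gdf5, a growth factor of joint development that was decreased, with a log2 value between 5.27 and 6.89 in PTIP+ and between 4.57 and 5.57 in PTIP- mice. Itga2 shared the hematopoietic cell lineage with Il6ra, and both were decreased. The other pathways of the 3 genes, such as ECM-receptor interaction for Itga2 and tight junction for Myl7, held no other gene.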

How the data were processed

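RNA of 18 individual mice was measured, 1 array per mouse, so replicates are separate animals. After RMA normalization, the authors deposited 58 selected probe sets as log2 values, which were used without further transformation. The columns were mapped to mice by their titles, with 0 value columns unmapped. The deposited table also holds the authors' own fold change, t-statistic and adjusted p, which were not used. Linear models were fitted to all 58 probe sets with limma 3.58.1 in R 4.3.3 (lmFit, arrayWeights, eBayes), since the methods name weighted limma models. Array weights, the variance prior and the Benjamini-Hochberg adjustment rest on these 58 selected probe sets alone, so estimates need not equal those of a fit to the whole array. A probe set passed if its adjusted p was at most 0.05 and its fold change at least 2-fold either way. Differences of means were also tested over all 43758 splits of the mice. Correlations were computed in Python 3.11.15 (scipy 1.17.1, numpy 2.4.6), with all pairings for 8 mice and 100000 resamples for 10. The fit was also run on simulated data, and no value of that run is reported here. Means and SDs are unweighted. The members, the gene lists and the rule for named genes (the 3 highest and the lowest r with each member, 3 set genes, and every listed gene in the table) were chosen with earlier results of these data known. Alternatives covered array weights, series and replicate blocks, left-out mice, centring, the variance prior, medians, a filter on dim probe sets and other thresholds.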

Additional observations from a re-analysis of the deposited data

How the results depend on the processing

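Comp and Myl7 kept their direction in all 30 alternatives run for each and Itga2 in all 29, and Comp and Myl7 stayed past the thresholds of 0.05 and 2-fold wherever the alternative had a test. In the array-weighted fit with no block or centring, none of the 3 genes reached a log2 fold change of 1.5, so none passed at that threshold, while Comp and Myl7 exceeded it with the series as a block (1.60 and 1.62) and with centred arrays. With medians in place of means, which had no test, the difference of Myl7 was 0.89, under 2-fold. Itga2 fell under 2-fold when each array was centred on its median (log2 fold change -0.73, against 2.00 for Comp and 1.76 for Myl7), and its difference was -0.62 within series 2. Centring removes the difference of the array medians between the genotypes. These medians are of the 58 probe sets selected for this same genotype difference, of which 33 passed as decreased and 19 as increased. Centring therefore takes out part of the selected difference itself and moves genotype differences upward by construction. Whether that difference comes from genotype or from the arrays was not tested. Leaving out each mouse in turn gave log2 fold changes between 1.18 and 1.60 for Comp, between -1.39 and -1.08 for Itga2 and between 1.05 and 1.54 for Myl7, and between 48 and 55 probe sets passed, against 52 with all mice. The count was 32 with centred arrays, of which 20 were increased (62.5%, against 36.5% without centring), and 20 at a log2 fold change of 1.5. A filter on means above 5 gave no value for Itga2. The correlation of Itga2 and Myl7 lost its adjusted p of 0.05 in PTIP+ mice without the 2 mice farthest by Itga2 (0.86) or, an alternative chosen after seeing the data, by Myl7 (0.94), as deviations within series (0.93) and with centred arrays (0.81). In PTIP- mice it did so without the 2 farthest by Myl7 (0.74), within series (0.46) and with centred arrays (0.71). The alternatives with mice left out or with deviations within series had fewer mice or fewer possible shuffles, while the centred arrays kept all mice. Why the calls were lost was not tested. Correlations of Comp, none of which had passed, changed sign in 6 cases: with Itga2 to -0.0013 within series and -0.091 centred in PTIP+ mice and to -0.27 in PTIP- mice without the 2 farthest by Comp, and with Myl7 to -0.36 without the 2 farthest by Myl7 and -0.25 within series in PTIP+ mice, and to -0.14 within series in PTIP- mice.

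With a replicate block over replicates 1 to 8, the log2 fold changes were 1.40 for Comp, -1.09 for Itga2 and 1.28 for Myl7, and 48 probe sets passed. Deviations of same-numbered mice correlated above 0.1 in 5 of 8 pairs (-0.35 to 0.62), and 4 of 8 mice correlated best with their own number, so the numbers were not taken as a pairing. PTIP+ replicate 5 and PTIP- replicate 7 share the number in their scan names but differ by up to 4.30 in a probe set, and without both the log2 fold changes were 1.37, -1.31 and 1.19. Detection calls were not used, so how signal over background limits these values was not tested.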
